A study of Mus musculus with 6 samples.

Results

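The 8 genes described here, Sesn1, Sesn2, Tigar, Gls2, Fdxr, Rrm2b, Trp53inp1 and Gdf15, are targets of p53 in metabolism and stress. They were chosen by name, all 8 were found among the 53379 annotated genes, and all 8 passed the filter on low counts with 14537 genes in all. Total RNA was sequenced from 6 cultures of mouse pancreatic tumour organoids, epithelial cultures grown in Matrigel in complete organoid medium. The C57/Bl6 tumour lines carried Pdx1-Cre, in which the Pdx1 promoter drives Cre in the pancreatic epithelium. The heterozygous libraries (Trp53LSLR172H/+, n = 3) came from lines 6, 23 and 34, and so did the LOH libraries (loss of heterozygosity, Trp53LSLR172H/-, n = 3). All 6 cultures thus shared the R172H allele and Cre, and they differed in the second Trp53 allele. Each line gave 1 library per genotype, and p-values measure the spread between these libraries. A suffix in the description of each LOH library is absent from the heterozygous ones and is nowhere explained. What it stands for cannot be told apart from the genotype.

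The transcription factor p53 binds pairs of short half-sites near its target genes and raises their transcription under stress. Besides arrest and death genes, its targets include enzymes and regulators that hold back growth signalling, supply antioxidant capacity and provide nucleotides for repair. R172H is a missense change in the DNA-binding domain, and cells that keep a wild-type allele beside it can still use that allele for transcription. Several of these 8 genes also respond to other stress pathways. The integrated stress response acts on Sesn2 and Gdf15.

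The comparison asked whether these targets differed once the wild-type allele was lost. Of the 8, 6 had a negative log2 fold change (LOH over heterozygous) and 2 a positive one, but none passed an adjusted p of 0.05 (edgeR quasi-likelihood test, Benjamini-Hochberg over all genes tested). The share of all tested genes called was 5.21%, with 3.55% higher and 1.66% lower in LOH. Sesn2 alone had an unadjusted p under 0.05, as did 25.3% of all tested genes. The test with the organoid line as a block also called 0 of the 8, with 1 at an unadjusted p under 0.05, against 1.47% and 20.0% of all genes. In count level, the libraries of both genotypes did not overlap for Sesn2, Gls2 and Gdf15, each lower in LOH, as for 16.5% of all genes. The median log2 fold change of the 8 was -0.73, against 0.063 over all tested genes. Other tools called more of all genes. DESeq2 called 1 of the 8 without a block (Sesn2, against 14.2% of all genes) and 1 with it (Gdf15, against 10.2%). Limma called 3 on log2(TPM + 1) (Sesn2, Tigar and Gdf15, against 16.0%) and 1 on log2(TPM + 0.1) (Sesn2, against 14.7%). With the log2(TPM + 1) values centred on the median of each library, it called 0 of the 8, against 5.8%. Of 36 annotated transcripts of the 8 genes 15 were tested and 0 called, against 0.0272% of all transcripts, and with the block no transcript was called (0.0%).

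Trp53 itself was read first as a check of the labels. It stood at 77.3, 76.3 and 86.5 CPM (counts scaled to library size by TMM) in heterozygous lines 6, 23 and 34 and at 73.5, 52.5 and 47.4 in LOH. Every LOH library was lower, and the test was not passed (log2 fold change -0.47, edgeR adjusted p = 0.227). Gene counts do not separate R172H from wild-type transcripts, so this level does not show which allele is present. Mdm2, the ubiquitin ligase that p53 induces as its own brake, fell by 1.26 on the log2 scale (edgeR adjusted p = 0.0284, and 0.0905 with the block). Ccng1, another direct target, fell by 2.17 on the log2 scale (adjusted p = 0.0314, and 0.0573 with the block, edgeR). Cdkn1a, the arrest gene p21, had a log2 fold change of -0.61 (adjusted p = 0.339, edgeR). Library totals ran from 13680458 to 27917277 expected counts, and 3 counts corresponded to 0.1 to 0.223 CPM.

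**Figure D1:**
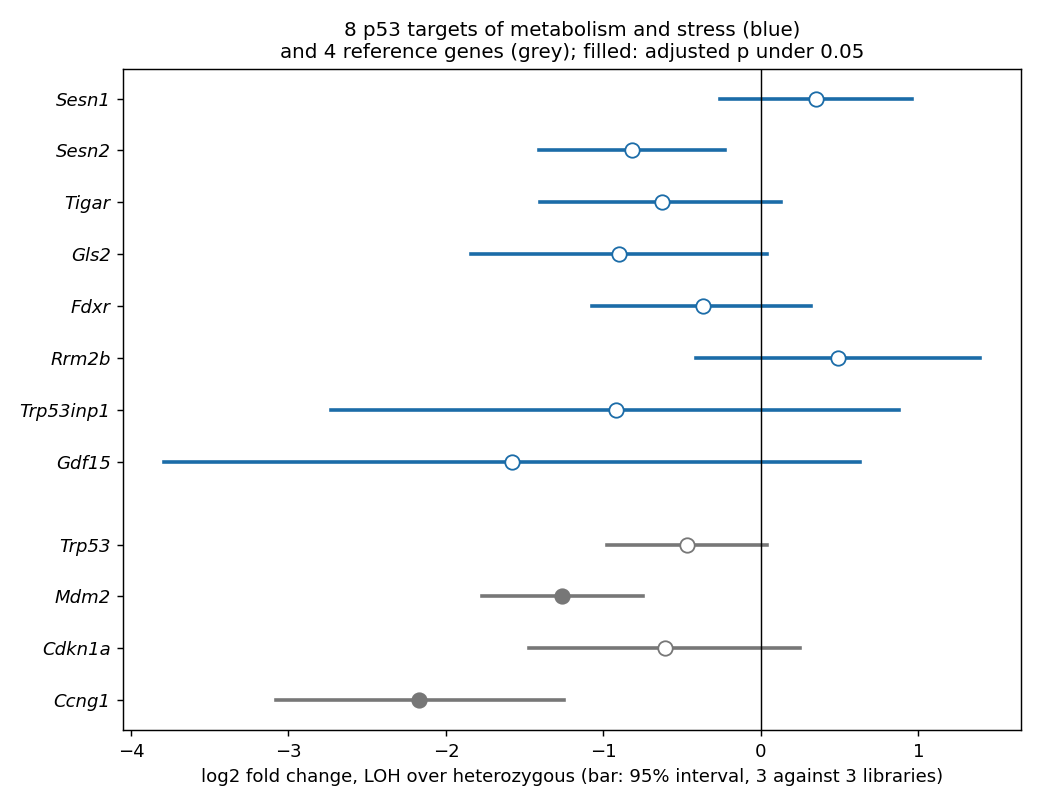
Log2 fold change of LOH over heterozygous libraries (x axis) for the 8 targets in blue and for Trp53, Mdm2, Cdkn1a and Ccng1 in grey. Bars are approximate 95% intervals derived from the edgeR test over 3 against 3 libraries. Filled points have an adjusted p under 0.05, which holds for Mdm2 and Ccng1 and for none of the 8 targets.

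Upstream sequences are shown for Sesn1 and Sesn2, paralogs of 1 family whose ratio separated the genotypes. They are the 250 bases before the start site in RefSeq (GRCm38.p6), read 5′ to 3′ on the gene's strand. The first precedes the inner start of Sesn1 (chr10:41887189-41887438, plus strand), which is the start of the coding transcript Sesn1-201. The second precedes the RefSeq start of Sesn2 (chr4:132510457-132510706, minus strand). The annotated transcript Sesn2-201 starts farther upstream, at 132510501. The end of this window, with its marked match, thus lies within that transcript. Capitals in the first mark both parts of a match to the p53 site, and capitals in the second mark a match to TGACNNNGC, the core of the antioxidant response element.
Sesn1 inner start: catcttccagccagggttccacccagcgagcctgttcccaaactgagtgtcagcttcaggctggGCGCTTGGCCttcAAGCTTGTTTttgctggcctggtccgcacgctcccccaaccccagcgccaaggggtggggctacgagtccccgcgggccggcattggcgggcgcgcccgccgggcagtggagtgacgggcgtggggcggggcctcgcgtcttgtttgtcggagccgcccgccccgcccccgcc
Sesn2: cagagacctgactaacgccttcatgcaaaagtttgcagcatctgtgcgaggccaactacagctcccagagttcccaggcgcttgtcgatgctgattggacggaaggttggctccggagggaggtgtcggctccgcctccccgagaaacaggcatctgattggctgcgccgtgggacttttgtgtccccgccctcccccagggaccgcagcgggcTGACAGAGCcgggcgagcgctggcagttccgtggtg

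The Sesn1 match began 186 bases before the start, had a spacer of 3 bases between its parts and 2 mismatches to the consensus. Its downstream part, at 173 bases before the start, matched the half-site fully. A full site with at most 2 mismatches was in 4.09% of 32851 RefSeq promoters of 300 bases (250 before and 50 after the start), searched on both strands with a spacer of up to 13 bases. A perfect half-site was in 8.36%. The Sesn2 match began 36 bases before the RefSeq start, and that motif was in 12.4% of promoters. Promoters were held for 5 of the 8 genes, namely Sesn1, Sesn2, Tigar, Fdxr and Gdf15, the first and last with 2 starts each. Apart from the Sesn1 and Sesn2 matches, these windows held no p53 site, no TGACNNNGC and no TGATGNAA, a core of the sites that CHOP and ATF4 bind, which 3.97% of promoters held. A match is a string of letters, not a measured binding site, and p53 sites of known targets often lie in introns, outside such windows. Gls2, Rrm2b and Trp53inp1 were not searched.

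The sestrins are stress proteins that restrain mTORC1, the kinase complex that promotes growth when amino acids are plentiful. SESN2 is also the leucine sensor that holds GATOR2. Sesn2 (ENSMUSG00000028893.8, chr4:132492032-132510501, minus strand, GRCm38) was at 37.0, 33.9 and 29.8 CPM in heterozygous lines 6, 23 and 34, and at 13.7, 18.9 and 24.4 CPM in LOH. Every LOH library lay below every heterozygous one, and line 6 showed the widest gap. In bulk cultures, fewer cells with the transcript and less of it per cell cannot be told apart. The mean went from 33.6 ± 3.64 to 19.0 ± 5.36 CPM (SD, n = 3 each), 1.77-fold lower. In edgeR this was a log2 difference of -0.82 (SE 0.25, 95% interval -1.41 to -0.23) with an adjusted p of 0.1, and 0.214 with the block. The call depended on the method: adjusted p was 0.0374 in DESeq2 without a block and 0.0281 in limma on log2(TPM + 1). With the log2(TPM + 1) values centred on the median of each library, limma gave an adjusted p of 0.086. In a comparison added after seeing the data, the 626 genes of chromosome 4 that reached a mean of 5 CPM had median log2 ratios of -0.35, -0.48 and -0.27 in lines 6, 23 and 34. Relative to these, the log2 ratios of Sesn2 were -1.08, -0.36 and -0.02, so that line 34 lay at the median of its chromosome.

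Sesn1 (ENSMUSG00000038332.13, chr10:41809935-41908424, plus strand), the sestrin first described as a p53-inducible gene, did not share that pattern. It was at 4.64, 4.38 and 5.88 CPM in the heterozygous libraries and at 5.76, 6.53 and 6.66 CPM in LOH. The groups overlapped, and LOH was higher in each line, by 0.31, 0.57 and 0.18 on the log2 scale. This was the only one of the 8 genes higher in all 3 lines, as 22.9% of all tested genes were. The log2 fold change was 0.35 (SE 0.26, 95% interval -0.26 to 0.96, edgeR adjusted p = 0.433). On log2(TPM + 1) the difference was -0.01, on a scale where the median of all genes was -0.353.

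Both sestrins can be compared per length within a library, where scaling has no part. Sesn1 reached 0.139, 0.15 and 0.223 of the TPM (the authors' abundance scaled for length and depth) of Sesn2 in the heterozygous libraries and 0.473, 0.416 and 0.311 in LOH. Every LOH library had the higher ratio, by 1.24 in mean log2 ratio (exact two-sided permutation p = 0.1, the smallest that 3 against 3 libraries can give). By line the ratio was higher in LOH by 1.76, 1.47 and 0.48. Sesn1 has 2 coding transcripts in use. Sesn1-201, from the inner start with the match above, took 55.2%, 66.2% and 58.7% of Sesn1 in the heterozygous libraries and 57.8%, 73.9% and 60.6% in LOH, overlapping ranges (log2 fold change 0.51, edgeR adjusted p = 0.606 over transcripts). The outer-start transcript Sesn1-202 had a log2 fold change of 0.22 (adjusted p = 0.851, edgeR). Sesn3, the sestrin that FoxO factors induce, was at 46.3, 25.4 and 30.2 against 33.8, 27.7 and 20.8 CPM, with groups that overlapped (log2 fold change -0.31, edgeR adjusted p = 0.534).

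Sesn3 was also listed with the partners of the sestrins (GATOR1, GATOR2, Rag GTPases, AMPK subunits, mTOR, Raptor and TSC). Of these 25 listed genes 23 were tested, and 0 were called in either direction. The median was 0.02, close to the 0.063 of all genes. Castor1 and Castor2 were not matched by name.

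**Figure D2:**
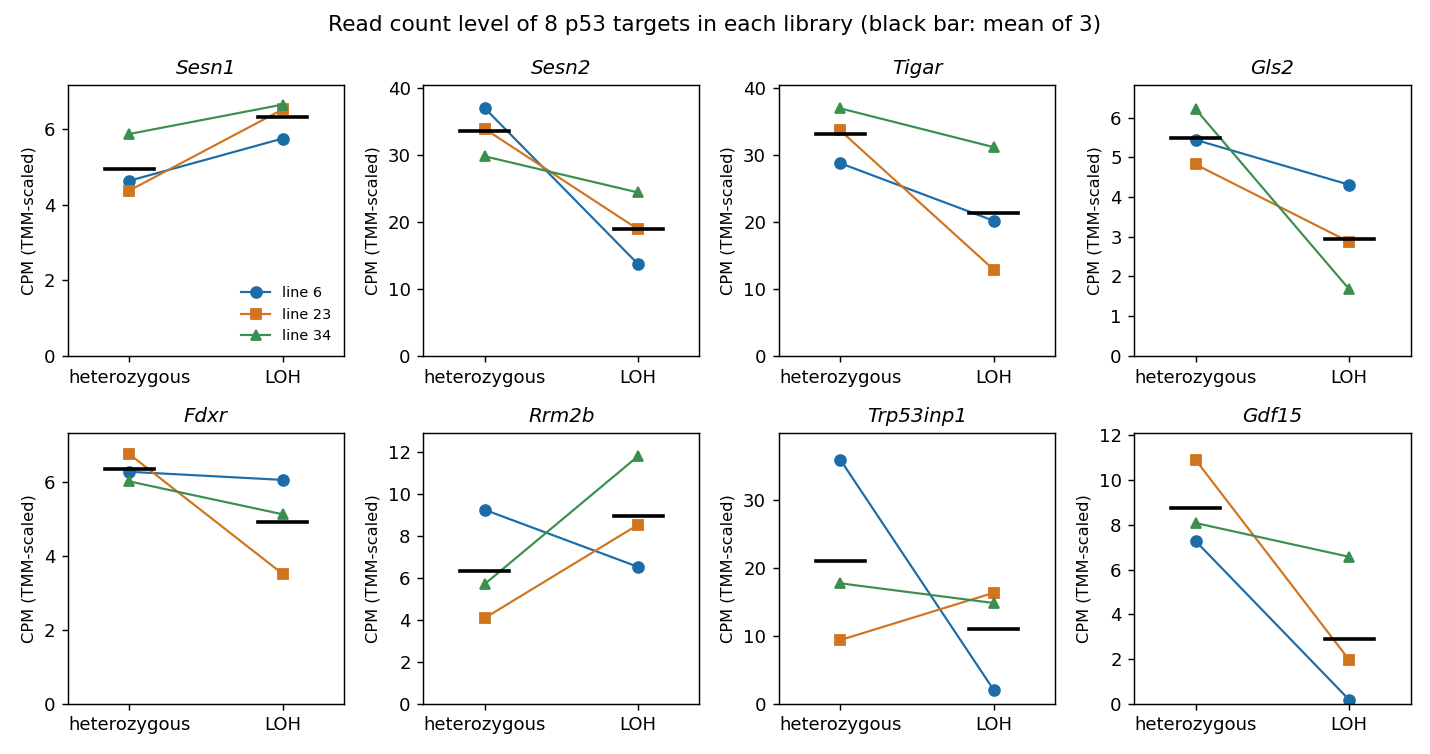
Level of each of the 8 targets (y axis, TMM-scaled CPM from 0) in heterozygous and LOH libraries, with lines joining the libraries of an organoid line and black bars for the mean of 3. Sesn2, Gls2 and Gdf15 have no overlap between genotypes, Sesn1 is higher in LOH in each line, and Rrm2b and Trp53inp1 go in both directions.

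TIGAR removes the phosphate from fructose 2,6-bisphosphate, which slows glycolysis and leaves more glucose 6-phosphate for the pentose phosphate pathway and its NADPH. Tigar (ENSMUSG00000038028.9, chr6:127085116-127109557, minus strand) was at 28.8, 33.7 and 37.0 CPM in the heterozygous libraries and at 20.2, 12.9 and 31.2 CPM in LOH. LOH was lower in each line, most in line 23 (-1.37 in log2) and least in line 34 (-0.25), and the LOH library of line 34 was above the heterozygous one of line 6. The mean went from 33.2 ± 4.12 to 21.4 ± 9.16 CPM (SD, n = 3 each). That difference, -0.63 in log2 (SE 0.32, 95% interval -1.4 to 0.13), had an edgeR adjusted p of 0.272. On TPM the groups did not overlap (11.2, 10.1 and 12.1 against 5.46, 3.19 and 7.02), and limma on log2(TPM + 1) gave -1.01 with an adjusted p of 0.0479. On that scale the median of all genes was -0.353, and relative to it Tigar stood at -0.65. With each library centred on its median, limma gave -0.67 and an adjusted p of 0.184. The short transcript Tigar-202, marked for nonsense-mediated decay, took 6.21%, 0.98% and 5.86% of Tigar in the heterozygous libraries and was listed at 0 in all 3 LOH libraries. Those shares rested on 11.4, 0.89 and 13.7 estimated counts, and the transcript was not tested.

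Of 17 other genes of fructose 2,6-bisphosphate control and the pentose phosphate pathway, 16 were tested, with a median of -0.23. Of these, 2 fell and 1 rose, against 1.66% and 3.55% of all tested genes, and 13 were not called. Fbp1 had at most 3 counts in every library. G6pdx and Pgd, the NADPH-making dehydrogenases of the pathway, fell by 0.98 and 1.03 on the log2 scale (edgeR adjusted p = 0.0313 and 0.0378). Pfkm, a phosphofructokinase, rose by 1.52 (edgeR adjusted p = 0.0164). It overlaps Gm26513 on the same strand and Senp1 on the opposite strand, and G6pdx overlaps Ikbkg on the opposite strand. With the block G6pdx, Pgd and Pfkm did not pass, at edgeR adjusted p of 0.107, 0.115 and 0.0539.

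GLS2 is the mitochondrial glutaminase that p53 induces, and it turns glutamine into glutamate, a precursor of glutathione. Gls2 (ENSMUSG00000044005.13, chr10:128194457-128210004, plus strand) was a low-level gene, with 36 to 186 counts per library. It was at 5.44, 4.82 and 6.21 CPM in the heterozygous libraries and at 4.31, 2.87 and 1.68 CPM in LOH. The groups did not overlap, and the gap was widest in line 34. The mean went from 5.49 ± 0.695 to 2.95 ± 1.32 CPM (SD, n = 3 each). In log2 it was -0.9 (SE 0.4, 95% interval -1.84 to 0.04) and had an edgeR adjusted p of 0.211, and 0.294 with the block. By line it was -0.33, -0.73 and -1.84. Taken against the median of chromosome 10 in each line, the values were 0.15, -0.56 and -1.88, so the direction in line 6 turned. Its full-length transcript Gls2-201 took 41.8%, 25.6% and 31.2% in the heterozygous libraries and 48.3%, 23.8% and 83.5% in LOH, where line 34 stood apart.

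In the wider list of glutamine and glutamate genes, 19 of 19 were tested, with a median of -0.27. Of these, 2 fell and 0 rose, against 1.66% and 3.55% of all tested genes. Glud1, glutamate dehydrogenase, fell by 0.89 (edgeR adjusted p = 0.032), and Gclc, the catalytic subunit of the first enzyme of glutathione synthesis, fell by 1.41 (edgeR adjusted p = 0.036). With the block neither passed, at edgeR adjusted p of 0.117 and 0.0735.

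**Figure D3:**
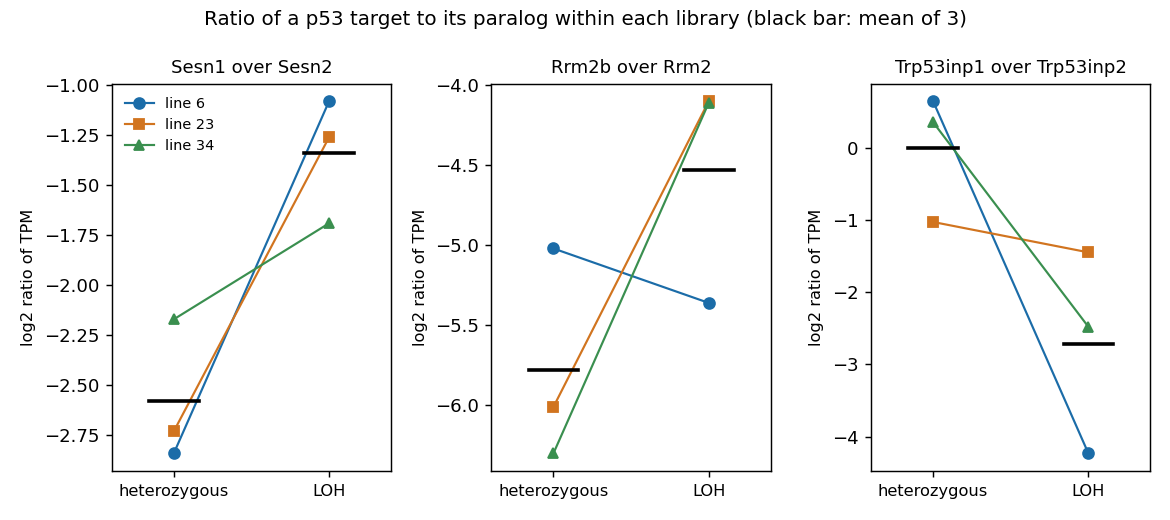
Log2 ratio of TPM (y axis) of Sesn1 to Sesn2, Rrm2b to Rrm2 and Trp53inp1 to Trp53inp2 in heterozygous and LOH libraries, with lines joining the libraries of an organoid line and black bars for the mean of 3. The Sesn1 ratio is higher and the Trp53inp1 ratio lower in every LOH library, and line 6 goes against the other lines for Rrm2b.

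Fdxr encodes ferredoxin reductase, which passes electrons from NADPH to ferredoxins for iron-sulphur cluster assembly. Fdxr (ENSMUSG00000018861.8, chr11:115268024-115277050, minus strand) was at 6.27, 6.75 and 6.01 CPM in the heterozygous libraries and at 6.05, 3.51 and 5.12 CPM in LOH. The groups overlapped by 1 library, since line 6 differed by only -0.05 in log2, and line 23 carried the widest gap at -0.93. The log2 fold change was -0.37 (SE 0.29, 95% interval -1.07 to 0.32, edgeR adjusted p = 0.454). Ferredoxins and iron-sulphur assembly genes, 18 tested of 20 listed, held 0 calls in either direction, with a median of -0.24. By line the medians of this list were 0.22, -0.76 and -0.58 in lines 6, 23 and 34. Fdx2 was not matched, and its older symbol Fdx1l was used.

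RRM2B is the p53-inducible small subunit of ribonucleotide reductase, which supplies deoxynucleotides for repair outside S phase, while RRM2 serves replication. Rrm2b (ENSMUSG00000022292.16, chr15:37923952-37961318, minus strand) was at 9.24, 4.08 and 5.7 CPM in the heterozygous libraries and at 6.52, 8.53 and 11.8 CPM in LOH. The groups overlapped, and the lines disagreed: the log2 ratio was -0.5 in line 6 and 1.05 and 1.04 in lines 23 and 34. Over all libraries it was 0.49 (SE 0.38, 95% interval -0.41 to 1.39, edgeR adjusted p = 0.449), and on log2(TPM + 1) it was -0.05. Gm3362 overlaps it on the same strand. Its main coding transcript Rrm2b-201 took 47.9% to 87.8% of the gene in the heterozygous libraries and 69.5% to 89.4% in LOH. The coding transcript Rrm2b-203 reached 27.0% in heterozygous line 23, on 4.18 estimated counts. Rrm2b-206, also coding, reached 12.9% in LOH line 23, on 4.69.

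Both replicative subunits were lower in LOH in each line without passing the edgeR test over all 6 libraries. For Rrm2 the log2 difference was -0.86 (SE 0.21, edgeR adjusted p = 0.0633) and for Rrm1, the large subunit, -0.93 (SE 0.26, edgeR adjusted p = 0.0808). Without the LOH library of line 6 both passed, at edgeR adjusted p of 0.022 and 0.0211, in a fit that called 2449 of 15132 genes. When any other library was left out neither passed, at edgeR adjusted p of 0.107 to 0.269 for Rrm2 and 0.126 to 0.284 for Rrm1. Without line 6 both passed (edgeR adjusted p = 0.0406 and 0.0423). Both also passed in DESeq2 without a block (adjusted p = 0.0116 and 0.022) and in limma on log2(TPM + 1) (0.0195 and 0.0211). Neither passed with the block, in edgeR (adjusted p = 0.165 for both) or in DESeq2 (0.0674 and 0.0506). Limma after median-centring gave adjusted p of 0.0482 and 0.0545. Rrm2b held 0.0309, 0.0155 and 0.0127 of the TPM of Rrm2 in the heterozygous libraries and 0.0243, 0.0582 and 0.0579 in LOH. In log2 the ratio was higher in LOH by 1.91 and 2.19 in lines 23 and 34 but not in line 6 (-0.34), and the groups overlapped (exact two-sided permutation p = 0.2). The 16 genes of dNTP supply, Rrm1 and Rrm2 among them, were all tested, with a median of -0.74. Of these, 1 fell, against 1.66% of all tested genes, and 15 were not called. The one that fell was Slc29a1, a nucleoside transporter, by 0.91 (edgeR adjusted p = 0.0352, and 0.128 with the block). The list's medians by line were -0.13, -1.05 and -1.06, so line 6 stood apart here as well.

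TP53INP1 is a stress protein that works with p53-modifying kinases and, in the cytoplasm, with autophagy proteins. Trp53inp1 (ENSMUSG00000028211.11, chr4:11156431-11174379, plus strand) was at 35.9, 9.35 and 17.7 CPM in the heterozygous libraries and at 2.04, 16.3 and 14.8 CPM in LOH. The genotypes overlapped widely: line 6 held both the highest and the lowest value of all 6 libraries. The spread was 3.84-fold among heterozygous and 8.02-fold among LOH libraries. By line the log2 ratio was -4.08, 0.8 and -0.26. The log2 fold change of -0.92 (SE 0.76, 95% interval -2.73 to 0.88, edgeR adjusted p = 0.478) rested on line 6, and without that line it was 0.16 (edgeR adjusted p = 0.781). The coding transcript Trp53inp1-201 took 40.1%, 26.2% and 57.2% of the gene in the heterozygous libraries. In LOH it took 48.0% and 27.7% in lines 23 and 34, and it was listed at 0 in line 6. The LOH library of line 6 held 35 counts of the gene, of which 34.6 were assigned to the transcript Trp53inp1-202.

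Its paralog Trp53inp2, which acts in autophagosome formation, was at 14.5, 15.7 and 9.95 CPM in the heterozygous libraries and at 26.7, 30.6 and 54.9 CPM in LOH. These groups did not overlap (log2 fold change 1.49, SE 0.34, edgeR adjusted p = 0.0527). Over the alternatives the adjusted p lay on both sides of the threshold, at 0.0512 with RLE and 0.0481 with upper quartile scaling in edgeR. It was 0.149 with the block in edgeR, 0.0725 in limma on log2(TPM + 1) and 0.00201 in DESeq2 without a block. The TPM ratio of Trp53inp1 to Trp53inp2 was 1.56, 0.491 and 1.28 in the heterozygous libraries and 0.0532, 0.367 and 0.179 in LOH. Every LOH library was lower, and the mean log2 ratio differed by -2.71 (exact two-sided permutation p = 0.1). In line 23 the difference was only -0.42, against -4.87 and -2.83 in lines 6 and 34. Trp53inp2 and the kinases and autophagy genes listed with this family made 18 genes. All were tested and 0 were called, with a median of 0.31.

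GDF15 is a secreted stress cytokine that acts through the receptor GFRAL in the hindbrain to lower appetite, and it is raised in many cancers. Gdf15 (ENSMUSG00000038508.7, chr8:70629393-70632456, minus strand) was at 7.27, 10.9 and 8.08 CPM in the heterozygous libraries and at 0.175, 1.96 and 6.57 CPM in LOH. In reads, these were 218, 147 and 242 counts against 3, 52 and 141. The groups did not overlap, yet the LOH libraries spanned 37.6-fold, against 1.5-fold among heterozygous ones. The mean went from 8.75 ± 1.91 to 2.9 ± 3.3 CPM (SD, n = 3 each). The heterozygous level was 41.6-fold the LOH level in line 6 (exact 95% interval 14.1 to 204), 5.56-fold in line 23 (4.02 to 7.78) and 1.23-fold in line 34 (0.996 to 1.53). These intervals cover counting error only, and none of the 3 overlaps another.

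Over the 3 lines the log2 fold change of Gdf15 was -1.58 (SE 0.94, 95% interval -3.79 to 0.63), with an edgeR adjusted p of 0.332, and -2.39 with 0.254 under the block. DESeq2 with the block gave -2.54 and an adjusted p of 0.0157, and limma on log2(TPM + 1) gave -1.87 and 0.0439. With each library centred on its median, limma gave -1.53 and an adjusted p of 0.126. Without the LOH library of line 34 the edgeR value was -2.97 (adjusted p = 0.102). Without that of line 6 it was -1.07 (edgeR adjusted p = 0.211). Both annotated transcripts are coding, and Gdf15-202 took 78.9% to 81.1% of the gene in the heterozygous libraries and 100%, 85.5% and 76.3% in LOH.

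Genes of the integrated stress response were read beside it, since ATF4 and CHOP also act on Gdf15 and Sesn2. The list also held Gfral and Ret, for the GDF15 receptor. Of 22 listed genes 21 were tested, with a median of 0.12, and of 0.18, -0.2 and 0.78 in lines 6, 23 and 34. Of these, 1 rose and 0 fell, against 3.55% and 1.66% of all tested genes. The one that rose was Vldlr, a lipoprotein receptor induced by ATF4, by 2.53 (edgeR adjusted p = 0.0219, and 0.0341 with the block). Gfral had at most 3 counts in every library.

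**Figure D4:**
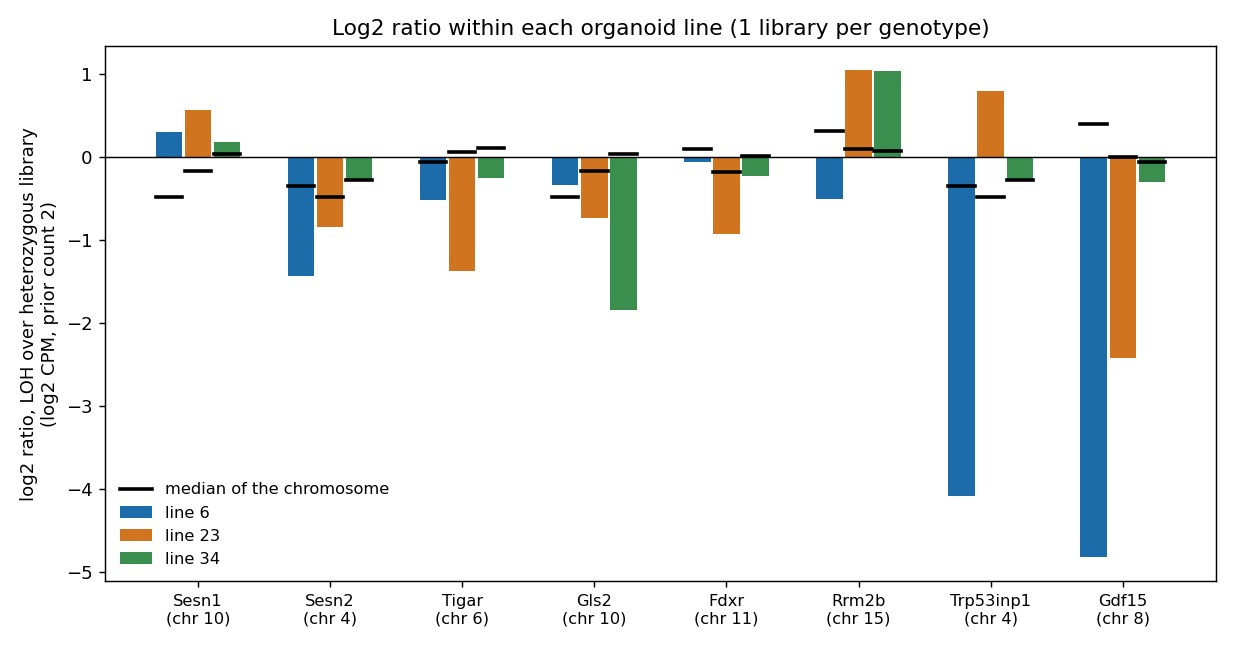
Log2 ratio of LOH over heterozygous within each organoid line (y axis, log2 CPM with a prior count of 2, 1 library per genotype) for the 8 targets, with black bars for the median of tested genes on the same chromosome. Gdf15 runs from -4.82 in line 6 to -0.3 in line 34, and Trp53inp1 from -4.08 in line 6 to 0.8 in line 23.

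Across lines, 5 of the 8 genes were lower in LOH in every line (Sesn2, Tigar, Gls2, Fdxr and Gdf15), as 21.6% of all tested genes were. Rrm2b and Trp53inp1 had both signs, as 55.5% of genes did. The medians of the 8 by line were -0.5, -0.79 and -0.25. Line 34 had the smallest difference in size for 5 of the 8, the exceptions being Gls2, Fdxr and Rrm2b. Line 6 had the widest gaps for Sesn2, Trp53inp1 and Gdf15, line 23 for Tigar and Fdxr, and line 34 for Gls2. Line 23 also had the widest gap for Sesn1, and for Rrm2b by 1.05 against 1.04 in line 34, both higher in LOH there. Among the 6 libraries, Sesn2 and Gdf15 were the most alike pair of the 8 (Pearson r = 0.93 of log2 CPM), and Sesn1 and Fdxr the least (r = -0.72). These correlations are descriptions over libraries that share lines and genotypes.

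Per length, the order of the mean TPM in heterozygous libraries was Sesn2 (11.6 ± 2.45), Tigar (11.1 ± 1.0), Gdf15 (7.78 ± 1.07), Trp53inp1 (5.33 ± 3.71), Fdxr (4.35 ± 0.414), Gls2 (3.29 ± 0.899), Rrm2b (2.2 ± 1.08) and Sesn1 (1.92 ± 0.298; SD, n = 3 each). Of neighbours in this order, only Tigar (10.1 to 12.1) and Gdf15 (6.97 to 9.0) did not overlap between libraries. In LOH, Tigar (5.22 ± 1.93) and Sesn2 (4.86 ± 0.951) stood first and Gls2 (1.41 ± 0.851) last, with Gdf15 at 1.86 ± 2.03.

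The other p53 targets give the setting. Of 32 direct targets in arrest, apoptosis, repair and feedback, all tested, 11 fell and 1 rose, with a median of -0.37. Mdm2, Cdkn1a and Ccng1 are among the 32. Over all tested genes, 1.66% were called lower and 3.55% higher. With the block 4 of these targets were called (Zmat3, Phlda3, Eda2r and Plk2), against 1.47% of all genes. Among the 11 that fell, Phlda3 and Plk2 had the smallest p. Phlda3, an inhibitor of AKT signalling, fell by 2.9 (edgeR adjusted p = 0.0164). Plk2, a stress kinase, fell by 1.94 (edgeR adjusted p = 0.0122). Cd82, a tetraspanin, rose by 1.78 (edgeR adjusted p = 0.0448, and 0.0885 with the block). Of 28 further targets placed in metabolism, autophagy or stress, 26 were tested, 1 fell, 1 rose and 24 were not called, with a median of 0.37. Aldh4a1, a proline-pathway dehydrogenase, fell by 1.24 (edgeR adjusted p = 0.0204), and Cyp4f13, a cytochrome P450, rose by 1.74 (edgeR adjusted p = 0.0355). With the block Dram1 alone of that list passed. That test is two-sided, and the direction of Dram1 is not given here. Whether the 8 genes differ from these lists was not tested.

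For each of the 8 genes, the genes most like it over the 6 libraries were read among the 10075 genes whose mean reached 5 CPM, by Pearson r of log2 CPM. Sesn2 was most like Tgfb3 (r = 0.9964) and Epb41 (0.9954), and Gdf15 most like Tbk1 (0.9909) and Cd44 (0.9899). Trp53inp1 was most like Psip1 (0.9983) and Snapc3 (0.9963). Tigar was nearest to Eif1ax (0.9949) and Psmd14 (0.9937), Gls2 to Baz1b (0.9952) and Rab26os (0.9926), and Fdxr to Slc25a25 (0.9915). For Rrm2b, Clock reached 0.9891, and Sesn1 to Slc25a28 (0.9955) and 0610009B22Rik (0.9733). With 6 libraries, between 5 and 156 genes reached an r of 0.95 for a given target, so these are descriptions.

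Markers of the labelled epithelial tissue were present. All 10 epithelial markers were tested and 0 were called, with a summed level of 6119 to 6864 CPM in heterozygous and 6042 to 11923 CPM in LOH libraries. Fibroblast markers summed to at most 0.133 and 0.931 CPM, with 6 of 9 at no more than 3 counts in every library, among them Col1a2, Col3a1 and Dcn. Endothelial markers summed to 0.445 to 0.835 and 0.699 to 1.77 CPM, and acinar markers to 1.03 to 1.99 and 1.96 to 6.27 CPM, with 6 of 8 at no more than 3 counts. Leukocyte markers summed to 1.93 to 2.37 CPM in heterozygous and 3.27 to 14.9 CPM in LOH libraries. Most of that was Cd68 (1.7, 1.78 and 1.84 against 2.97, 6.95 and 14.7 CPM), and Csf1r added 0.534 CPM in heterozygous line 6, while Cd3e, Cd79a, Adgre1, Itgam and Lyz2 had at most 3 counts in every library. The part of these differences in the values of the 8 genes was not tested.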

How the data were processed

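RNA from 6 organoid cultures was made into stranded total RNA libraries, per the labels. The authors deposited gene and transcript tables laid out as RSEM writes them, per the file headers. FPKM, deposited beside TPM per the file headers, was not used. Expected counts are the authors' estimated counts, and TPM is the authors' length- and depth-scaled abundance. Isoform shares are a deposited percent of a gene's abundance, per the file headers. Reads shared by transcripts of a gene are divided between them by estimate, an uncertainty that neither the shares nor the tests show. The deposited normalized tables hold a signal, the counts divided by a factor per library, which was used to match names. The submitters' processing notes name FastQC 0.11.5, STAR 2.5.2b, RSEM 1.3.0, DESeq2 1.44.0 and GRCm38.p5, with no roles. The strand setting and read filters are not given in the sources used here, so overlapping genes cannot be told apart. Gm12981 overlaps Sesn2 and 9930024M15Rik overlaps Sesn1 on the same strand, and Platr31 and Spryd4 overlap Tigar and Gls2 on the opposite one. Same-strand overlaps also hold for Rrm1 (Gm45399), Cd82 (Mir7001) and Aldh4a1 (Gm21969 and Mir7020).

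Counts were rounded, filtered by filterByExpr, scaled by TMM and tested with edgeR 4.0.16 (quasi-likelihood, two-sided, Benjamini-Hochberg, threshold 0.05) in R 4.3.3, over genes and over transcripts. Transcripts tested numbered 36699. Alternatives used DESeq2 1.42.0 and limma 3.58.1, the latter on genes that reached a TPM of 1 in 3 libraries. Python 3.11.15, scipy 1.17.1 and matplotlib 3.10.9 made ratios, exact tests and figures. Only the edgeR fit over genes without the block was tested on simulated data, with 200 changed genes. Coordinates came from GENCODE mouse annotation on GRCm38.

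The 8 genes, the 9 lists and the 5 marker lists were chosen with earlier results of these data known. Named were the 8 genes, Trp53, Mdm2, Cdkn1a, Ccng1, the paralogs, and up to 2 higher and 2 lower called genes of each list with the smallest p, apart from a few items that are not reported here. Genes counted or listed beyond that rule were named after their values were seen. Libraries of a line pair by title. The correlation of their deviations from the group means was -0.295, 0.009 and 0.294 in lines 6, 23 and 34, and from -0.387 to 0.296 between lines. Counting intervals treat each read as independent, which reads lacking molecular identifiers need not be.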

Additional observations from a re-analysis of the deposited data

Results flagged for a closer look

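Several log2 ratios had opposite signs in different organoid lines, each from 1 library per genotype, and these differences were not tested. For Rrm2b the lines spanned 1.55 in log2, from lower in LOH in line 6 to higher in lines 23 and 34. For Trp53inp1 they spanned 4.88, with line 23 above 0 and lines 6 and 34 below. Sesn3 spanned 0.66, with line 23 alone above 0. The TPM ratio of Rrm2b to Rrm2 spanned 2.53 in log2, with line 6 alone below 0. Over all tested genes 55.5% had both signs over the 3 lines.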

How the results depend on the processing

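Over 21 alternatives (20 for Gdf15, which fails a minimum of 10 counts), the log2 fold changes of Sesn2, Tigar, Gls2, Fdxr and Gdf15 stayed negative. Sesn1 and Rrm2b turned in limma on TPM, to -0.01 and -0.05 with a pseudocount of 1 and to -0.01 and -0.06 with 0.1. There the median of all genes was -0.353 and -0.417, and relative to it both were positive (0.34 and 0.3, then 0.41 and 0.36). Trp53inp1 turned to 0.16 without line 6, and its values without a library or line ran from -1.67 to 0.16. The number of the 8 genes called was 0 in the reported test and 1 in DESeq2 without block (Sesn2) and with it (Gdf15), 3 on log2(TPM + 1) (Sesn2, Tigar and Gdf15) and 1 on log2(TPM + 0.1) (Sesn2). The other alternatives gave 0. Over all genes, the 757 calls became 213 with the replicate block, 2266 and 1529 in DESeq2 without and with block, and 1911 and 1753 in limma on log2(TPM + 1) and log2(TPM + 0.1). After median-centring, an alternative chosen after seeing the data, limma called 0 of the 8 genes. The calls ran from 0 to 2449 when 1 library was left out and from 0 to 1422 when a line was left out. No call remained in edgeR without any one heterozygous library (2966, 2637 and 2272 genes at an unadjusted p under 0.05) or without line 23 or 34 (2253 and 2097), and 2449, 451 and 796 remained without the LOH library of line 6, 23 or 34. Mdm2 and Ccng1 lost their calls in those 5 fits and without the LOH library of line 23, and Ccng1 also without line 6. The causes were not tested. Gdf15 in LOH of line 6 rested on 3 counts, which limits its ratio there.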
